A study of Mus musculus with 89 samples.

Results

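The 9 genes followed here belong to the epithelial-mesenchymal transition (EMT), and were measured in mouse embryonic stem cells (ESCs) that had lost Esrrb, Nr5a2, both or neither of these orphan nuclear receptors. They were 3 genes of the epithelial side (Cdh1, Epcam and Esrp1), 2 of the mesenchymal side (Cdh2 and Vim) and 4 transcription factors that drive the transition (Snai2, Twist1, Zeb1 and Zeb2). They were chosen by gene symbol, and each matched 1 of the 54146 gene rows of the expression tables. After loss of both receptors Cdh2 and Zeb2 rose and Zeb1 fell in both media, Twist1 rose in FCS/LIF and Esrp1 rose in 2i/LIF, while no call was made for Cdh1, Epcam, Vim or Snai2. The Zeb1 calls of both media and the Zeb2 call of FCS/LIF were lost when certain single libraries were left out. In 2i/LIF cells with both receptors, Esrp1 and Zeb2 were too low to pass the count filter, which favoured their rises.

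In an EMT, epithelial cells loosen the junctions that E-cadherin builds between neighbours and take on a migratory form with vimentin filaments and, often, N-cadherin. Snail, Twist and Zeb factors bind E-box motifs in the promoters of epithelial genes and repress them, and Esrp proteins keep the epithelial splice forms of many transcripts. Naive ESCs resemble the epiblast of the embryo before it implants, and carry E-cadherin, which holds their colonies together. The switch from E- to N-cadherin is known from gastrulation.

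All cells derived from EKOiE ESCs, which lack endogenous Esrrb and express an Esrrb transgene while doxycycline (Dox) is present. The 4 states were +E+N (EKOiE cells kept in 1 µg/ml Dox), −E (EKOiE cells 2 days after Dox withdrawal), −N (EKOiE NrKO cells with Dox) and −E−N (EKOiE NrKO cells 2 days after Dox withdrawal). NrKO cells carry a disruption of both Nr5a2 alleles at the exon where the DNA-binding domain starts. The labels name no clone, and the methods describe RNA-seq of clone 4. Each state was profiled by poly(A) RNA-seq in serum with LIF (FCS/LIF, 2 replicates) and in serum-free medium with LIF and inhibitors of MEK and GSK3 (2i/LIF, 3 replicates), giving 20 libraries on gelatine. The study describes the replicates as independent experiments. The NrKO line cannot be told apart from the loss of Nr5a2, nor the medium from the culture batch. Likewise the loss of Esrrb cannot be told apart from the absence of Dox. In bulk RNA a change in the share of cells that express a gene cannot be told apart from a change in each cell.

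Library totals ran from 36514172 to 45443379 counts in FCS/LIF and from 26653035 to 32526534 in 2i/LIF, so a gene with a few counts per library carries a large sampling error. Levels are in CPM, which are counts scaled to the library's total. In FCS/LIF +E+N cells held 312 ± 57.7 CPM of Esrrb (SD, n = 2) and −E−N cells 30.1 ± 1.72, and in 2i/LIF these held 576 ± 52.9 and 145 ± 36.2 CPM (n = 3). In −E it was at 69.7 ± 6.44 CPM in FCS/LIF and at 418 ± 33.2 CPM in 2i/LIF, and the table does not separate transgene reads from reads of the disrupted locus. Nr5a2 reads remained in NrKO cells, at 26.4 ± 1.14 CPM in FCS/LIF and 68.9 ± 8.27 CPM in 2i/LIF, which does not test a disruption of 1 exon. All 9 ESC markers examined, among them Pou5f1, Sox2 and Nanog, averaged at least 1 TPM, a level corrected for transcript length, in every group. Their summed level went from 7830-7968 TPM in +E+N to 4574-4961 in −E−N in FCS/LIF, and from 7687-8085 to 2854-3849 in 2i/LIF.

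**Figure D1:**
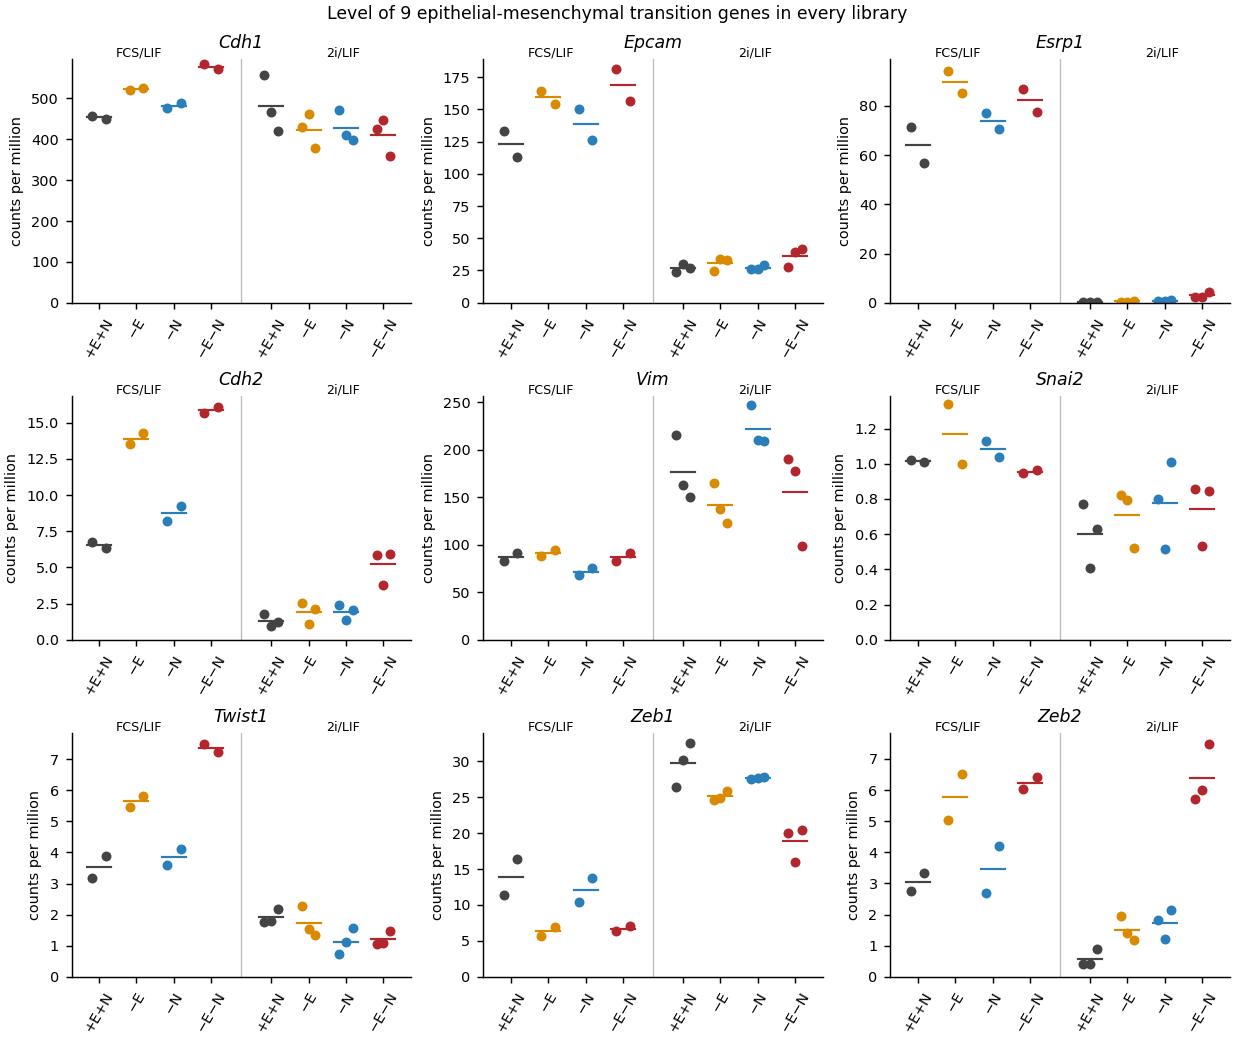
CPM (linear axis from 0) of the 9 genes in each of the 20 libraries, by state, with FCS/LIF left and 2i/LIF right of the grey line in each panel. Points are libraries and bars are group means. Esrp1, Epcam and Cdh2 sit far lower in 2i/LIF than in FCS/LIF, and Zeb1 and Vim higher.

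Levels of different genes were compared in TPM. In +E+N cells of FCS/LIF the order was Cdh1 (127 ± 3.74 TPM, SD, n = 2), Epcam (79.7 ± 6.68), Vim (78.0 ± 8.39), Esrp1 (21.7 ± 2.81), then Twist1 (2.64 and 3.37 TPM in the libraries), Zeb1 (2.36 and 3.59 TPM), Cdh2 (1.91 and 1.83 TPM), Snai2 (0.650 and 0.680 TPM) and Zeb2 (0.630 and 0.670 TPM). Epcam and Vim overlapped between libraries, as did Twist1 with Zeb1, and Snai2 with Zeb2. In 2i/LIF the order became Vim (147 ± 21.8 TPM, SD, n = 3), Cdh1 (134 ± 14.1), Epcam (16.9 ± 2.26), Zeb1 (6.18 ± 0.871) and Twist1 (1.58 ± 0.240). Cdh2, Snai2 and Zeb2 followed at 0.490, 0.290 and 0.370 TPM, 0.480, 0.260 and 0.410 TPM and 0.240, 0.310 and 0.180 TPM, and Esrp1 was last at 0.0900, 0.0900 and 0.0700 TPM. Vim and Cdh1 overlapped there, and so did Cdh2 and Zeb2 with Snai2. The epithelial cadherin and the mesenchymal filament gene were thus both among the highest of the set in the same libraries.

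Below, differences are log2 fold changes with their standard error (SE) from edgeR's quasi-likelihood test, and p-values are adjusted over all genes tested. A gene is called at an adjusted p under 0.01 and a fold change over 1.5. Tests of an interaction or of a difference between media carry no fold limit.

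Cdh1, which encodes E-cadherin, the adhesion molecule of epithelial junctions, is ENSMUSG00000000303 at chr8:106603351-106670246 (plus strand) of mm10. In FCS/LIF its level was 457 and 449.9 CPM (+E+N), 522 and 526 CPM (−E), 476 and 489 CPM (−N) and 585 and 571 CPM (−E−N). No state overlapped another there, and the −E−N libraries were highest. The difference of −E−N from +E+N was 0.33 ± 0.0464 (SE, adjusted p = 0.000529), which is 1.26-fold and under the fold limit. In 2i/LIF the level was 556, 466 and 421 CPM (+E+N), 431, 461 and 379.6 CPM (−E), 473, 411 and 398 CPM (−N) and 426, 446 and 359 CPM (−E−N). These 4 states overlapped, and −E−N differed from +E+N by −0.22 ± 0.11 (SE, adjusted p = 0.148). Between media, +E+N cells differed by 0.086 ± 0.11 (SE, adjusted p = 0.522), 2i/LIF minus FCS/LIF. The −E−N response was higher in FCS/LIF than in 2i/LIF by 0.58 ± 0.16 (SE, adjusted p = 0.0123), which missed the threshold in edgeR. It passed with DESeq2 (0.58, adjusted p = 0.00381), with the replicate number as a block (0.58, adjusted p = 0.000245), with no filter on low counts (0.52, adjusted p = 0.000186), with limma on log2(TPM + 1) (0.71, adjusted p = 0.00248) and without the 2i/LIF +E+N replicate 3 (0.67, adjusted p = 0.00519), and did not pass without each of the other 9 libraries in turn.

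Epcam, a cell surface adhesion protein of epithelia that ESCs also carry, is ENSMUSG00000045394 at chr17:87635979-87651129 (plus strand). Its proximal promoter is shown because the level of this gene differed strongly between the media, and because its window in the RefSeq promoter table (GRCm38.p6) holds the motif bound by Snail and Zeb factors. The stretch is chr17:87635729-87635978 on the plus strand, which is the 250 bases before the gene's start, and capitals mark the E-boxes.
Epcam: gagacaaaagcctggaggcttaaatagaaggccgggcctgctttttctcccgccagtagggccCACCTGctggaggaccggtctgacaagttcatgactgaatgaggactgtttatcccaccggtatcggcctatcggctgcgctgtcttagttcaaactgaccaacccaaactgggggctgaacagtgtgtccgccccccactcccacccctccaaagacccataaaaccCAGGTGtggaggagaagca
The first, CACCTG, begins 187 bases before the start, and the second, CAGGTG, is the same motif on the minus strand and begins 19 bases before it. This motif was found on either strand in 20.2% of the 32817 promoter windows of 300 bases, and in 2.88% of them at least 2 times. TCAAGGTCA and TCAAGGCCA, the 2 forms of the Esrrb and Nr5a2 motif, were not matched on either strand of the Epcam window and occurred in 0.424% and 0.591% of windows. None of the 3 motifs was matched in the 1 window of Vim, the 1 of Twist1 or the 4 of Zeb2, which says only that these letters are not there. Of 7 genes looked up by symbol these 4 matched the table, the others being Cdh1, Esrp1 and Snai2.

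Epcam stood at 134 and 113 CPM (+E+N), 164 and 154 CPM (−E), 150.5 and 127 CPM (−N) and 181 and 157 CPM (−E−N) in FCS/LIF. The −E−N libraries lay above both +E+N libraries, by 0.44 ± 0.11 (SE, adjusted p = 0.00985), a 1.35-fold difference under the fold limit. In 2i/LIF it was far lower, at 23.7, 29.7 and 26.6 CPM (+E+N), 24.5, 34.3 and 33.3 CPM (−E), 25.8, 26.1 and 28.9 CPM (−N) and 27.7, 39.3 and 42.0 CPM (−E−N). The 2i/LIF states overlapped, and −E−N exceeded +E+N by 0.46 ± 0.16 (SE, adjusted p = 0.034), which was not called, but was without −E−N replicate 1 (0.62, adjusted p = 0.00428). In +E+N cells Epcam fell by 2.21 ± 0.16 on the log2 scale (SE, adjusted p = 4.79e-09) from FCS/LIF to 2i/LIF, or 4.63-fold. The −E−N response differed between media by 0.0066 ± 0.23 (SE, adjusted p = 0.989), with an SE larger than the difference.

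Esrp1, a splicing regulator that holds epithelial splice forms in place, is ENSMUSG00000040728 at chr4:11331933-11386783 (minus strand). On the other strand the lincRNA gene Gm26663 overlaps 11021 bases of it, and the counting options stated by the study do not include strand, so reads of the overlap are uncertain. In FCS/LIF Esrp1 was at 71.6 and 56.6 CPM (+E+N), 94.3 and 85.3 CPM (−E), 77.2 and 70.7 CPM (−N) and 86.9 and 77.7 CPM (−E−N). In 2i/LIF it was at 0.257, 0.260 and 0.209 CPM (+E+N), 0.429, 0.432 and 0.901 CPM (−E), 0.654, 0.849 and 0.937 CPM (−N) and 2.47, 2.51 and 4.19 CPM (−E−N). These 2i/LIF levels rest on 8, 7 and 6 counts (+E+N), 12, 12 and 26 counts (−E), 18, 23 and 25 counts (−N) and 75, 71 and 124 counts (−E−N), and Esrp1 passed the count filter of that medium through −E−N alone. Esrp1 thus differed between media more than any other of the 9 genes, by −8.03 ± 0.25 (SE, adjusted p = 3.99e-13) in +E+N cells, or 261-fold lower in 2i/LIF. The filter, which Esrp1 did not pass in +E+N of 2i/LIF, favoured this difference. Within 2i/LIF every −E−N library exceeded every other library, by 3.65 ± 0.38 (SE, adjusted p = 1.15e-05) over +E+N, by 1.93 ± 0.33 (adjusted p = 0.0017) over −N and by 2.38 ± 0.34 (adjusted p = 0.000232) over −E. Because it entered the 2i/LIF fit only through the state in which it was high, all 3 of these differences were favoured by the filter and are given as a description. With no filter on low counts they were 3.64, adjusted p = 1.77e-08, 1.91, adjusted p = 0.000242 and 2.39, adjusted p = 8.04e-06. Even so the −E−N cells of 2i/LIF, at 1.04 ± 0.341 TPM (SD, n = 3), stayed far under the +E+N cells of FCS/LIF at 21.7 ± 2.81 (n = 2). In FCS/LIF the −E libraries lay above the +E+N libraries by 0.47 ± 0.11 (SE, adjusted p = 0.0192) and the −E−N libraries by 0.34 ± 0.11 (adjusted p = 0.0321), and neither was called, although −E was without +E+N replicate 1 (0.65, adjusted p = 0.00474). The −E−N response of FCS/LIF minus that of 2i/LIF was −3.28 ± 0.38 (SE, adjusted p = 1.52e-05). With limma on log2(TPM + 1), a scale that shrinks low values, this came to −0.40, adjusted p = 0.137.

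Cdh2, which encodes N-cadherin, the cadherin of mesenchymal and neural cells, is on chromosome 18, with 946 bases of it overlapped by the antisense gene Gm15485. In FCS/LIF it was at 6.72 and 6.33 CPM (+E+N), 13.5 and 14.3 CPM (−E), 8.20 and 9.26 CPM (−N) and 15.6 and 16.1 CPM (−E−N). The states without Dox held the highest levels and overlapped neither +E+N nor −N. Cdh2 rose by 1.07 ± 0.11 (SE, adjusted p = 0.000308) in −E and by 1.26 ± 0.11 (adjusted p = 3.94e-05) in −E−N, and −E−N exceeded −N by 0.86 ± 0.11 (adjusted p = 0.000576). The −E−N libraries differed from −E by 0.19 ± 0.10 (SE, adjusted p = 0.224), which was not called. In 2i/LIF Cdh2 was at 1.77, 0.929 and 1.22 CPM (+E+N), 2.57, 1.08 and 2.11 CPM (−E), 2.43, 1.37 and 2.06 CPM (−N) and 5.88, 3.82 and 5.92 CPM (−E−N), and the −E−N libraries again lay above all others. There it rose by 2.00 ± 0.35 (SE, adjusted p = 0.000638) in −E−N over +E+N and by 1.45 ± 0.34 (adjusted p = 0.00641) over −E. The latter call was lost when −E replicate 2 (1.16, adjusted p = 0.0246) or 3 (1.53, adjusted p = 0.0168), or −E−N replicate 1 (1.35, adjusted p = 0.022) or 3 (1.34, adjusted p = 0.0219), was left out. Over −N the difference was 1.43 ± 0.34 (SE, adjusted p = 0.0115), not called, and with replicates paired by number as a block it was 1.45, adjusted p = 6.37e-05. Single losses in 2i/LIF gave 0.56 ± 0.36 (SE, adjusted p = 0.427) for −E and 0.57 ± 0.36 (adjusted p = 0.367) for −N. The libraries overlapped as groups, while within each of the 3 replicate numbers −E and −N both lay above +E+N, and with the number as a block the differences were 0.54, adjusted p = 0.0894 and 0.58, adjusted p = 0.0584. In +E+N cells Cdh2 was 4.95-fold lower in 2i/LIF (−2.31 ± 0.30, SE, adjusted p = 4.61e-06). Of 6 neural markers, of cells that also carry N-cadherin, 4 were higher and 2 lower in −E−N of each medium. Their summed level went from 13.99 TPM in both +E+N libraries of FCS/LIF to 40.8-41.6 in −E−N, and from 7.76-10.4 to 11.1-11.9 in 2i/LIF, and none was at 0 in all libraries of a group. In FCS/LIF this was Nes, at 7.57 and 35.3 TPM, since without it the sums were 6.15-6.70 and 5.68-6.07 TPM, and Pax6 was lower, at 4.83 and 2.12 TPM. In FCS/LIF 2 and then 3 of them were at 1 TPM or more, and in 2i/LIF 2 in both states. Their part in the result was not tested.

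Vim, the intermediate filament protein of mesenchymal cells, is ENSMUSG00000026728 at chr2:13573927-13582826 (plus strand). In FCS/LIF it was at 83.4 and 91.3 CPM (+E+N), 88.0 and 95.0 CPM (−E), 68.2 and 75.3 CPM (−N) and 83.3 and 91.4 CPM (−E−N). The −E and −E−N libraries lay among or next to those of +E+N, and the −N libraries below all others. The differences from +E+N were 0.048 ± 0.0798 (SE, adjusted p = 0.714) for −E, −0.30 ± 0.0801 (adjusted p = 0.0984) for −N and −0.020 ± 0.0799 (adjusted p = 0.858) for −E−N, and none was called. In 2i/LIF Vim was at 216, 163 and 151 CPM (+E+N), 165, 137 and 123 CPM (−E), 248, 211 and 209 CPM (−N) and 190.3, 177 and 98.8 CPM (−E−N). Replicate 3 of −E−N was the lowest of the 12 libraries there, and −E−N differed from +E+N by −0.17 ± 0.21 (SE, adjusted p = 0.55) with it and by 0.069, adjusted p = 0.761 without it. Vim was 2.02-fold higher in 2i/LIF than in FCS/LIF in +E+N cells (1.01 ± 0.21, SE, adjusted p = 0.000574), a call lost without the FCS/LIF +E+N replicate 1 (0.94, adjusted p = 0.0108).

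Snai2, which encodes the E-box repressor Slug, is ENSMUSG00000022676 at chr16:14705852-14709385 (plus strand) and was near the limit of what these libraries measure. In FCS/LIF it had 39 and 44 counts (+E+N), 57 and 42 counts (−E), 47 and 48 counts (−N) and 36 and 39 counts (−E−N). The states overlapped or lay side by side, and −E−N differed from +E+N by −0.10 ± 0.25 (SE, adjusted p = 0.752). In 2i/LIF counts ran from 11 to 27 per library and no state passed the filter of 20 counts in all replicates, so Snai2 was not tested within that medium. Between media the difference in +E+N cells was −0.74 ± 0.33 (SE, adjusted p = 0.0606), not called.

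Twist1, a bHLH factor that promotes mesenchymal character, is ENSMUSG00000035799 at chr12:33957671-33959829 (plus strand). In FCS/LIF it was at 3.19 and 3.88 CPM (+E+N), 5.47 and 5.82 CPM (−E), 3.58 and 4.11 CPM (−N) and 7.49 and 7.22 CPM (−E−N). Both −E−N libraries lay above all others, and both −E libraries above +E+N and −N. Twist1 rose in −E−N by 1.04 ± 0.15 (SE, adjusted p = 0.000674) over +E+N and by 0.93 ± 0.15 (adjusted p = 0.00217) over −N, and the difference in −E, 0.65 ± 0.15 (adjusted p = 0.0182), was not called. The call over −N was lost without −N replicate 1 (0.84, adjusted p = 0.0146), −E−N replicate 1 (0.88, adjusted p = 0.0172) or −E−N replicate 2 (0.93, adjusted p = 0.0179). In 2i/LIF it was at 1.77, 1.78 and 2.19 CPM (+E+N), 2.29, 1.55 and 1.35 CPM (−E), 0.726, 1.11 and 1.57 CPM (−N) and 1.05, 1.10 and 1.49 CPM (−E−N). There the 3 −E−N libraries lay below those of +E+N, and −E−N differed from +E+N by −0.64 ± 0.31 (SE, adjusted p = 0.113), which was not called. The −E−N response of FCS/LIF minus that of 2i/LIF was 1.71 ± 0.37 (SE, adjusted p = 0.00296). That difference lost its call without 1 of 3 FCS/LIF libraries, namely +E+N replicate 1 (1.58, adjusted p = 0.021), −E−N replicate 1 (1.66, adjusted p = 0.0137) and −E−N replicate 2 (1.71, adjusted p = 0.0126). In +E+N cells Twist1 was 1.85-fold lower in 2i/LIF (−0.88 ± 0.26, SE, adjusted p = 0.00673). That call was lost without replicate 1 (−1.02, adjusted p = 0.0139) or 2 (−0.75, adjusted p = 0.069) of FCS/LIF, and without replicate 1 (−0.83, adjusted p = 0.0219) or 2 (−0.84, adjusted p = 0.0232) of 2i/LIF.

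Zeb1, a zinc finger and homeodomain repressor of Cdh1, is on chromosome 18, with 1646 bases of it overlapped on the other strand by Gm10125. In FCS/LIF it was at 11.3 and 16.4 CPM (+E+N), 5.73 and 6.98 CPM (−E), 10.4 and 13.8 CPM (−N) and 6.31 and 7.02 CPM (−E−N). The states without Dox lay below +E+N and −N in every library, and the 2 +E+N libraries themselves lay apart. Zeb1 fell by 1.14 ± 0.21 on the log2 scale (SE, adjusted p = 0.0057) in −E and by 1.07 ± 0.21 (adjusted p = 0.00285) in −E−N. Without +E+N replicate 2 these were −0.85, adjusted p = 0.025, and −0.78, adjusted p = 0.0157, neither called. The −E call was also lost without −E replicate 1 (−0.999, adjusted p = 0.0518) or 2 (−1.29, adjusted p = 0.0303), and the −E−N call without −E−N replicate 1 (−1.02, adjusted p = 0.0231) or 2 (−1.17, adjusted p = 0.0176). In 2i/LIF Zeb1 was at 26.5, 30.2 and 32.6 CPM (+E+N), 24.6, 24.9 and 25.8 CPM (−E), 27.6, 27.6 and 27.9 CPM (−N) and 20.0, 16.0 and 20.5 CPM (−E−N). The 3 −E−N libraries lay below the other 9, and the difference from +E+N was −0.64 ± 0.10 (SE, adjusted p = 0.000327), called by a narrow margin of fold. It fell under the fold limit without +E+N replicate 3 (−0.57, adjusted p = 0.00213) or −E−N replicate 2 (−0.54, adjusted p = 0.00116). Zeb1 was 2.14-fold higher in 2i/LIF in +E+N cells (1.10 ± 0.16, SE, adjusted p = 1.34e-05). The −E response of FCS/LIF minus that of 2i/LIF was −0.88 ± 0.22 (SE, adjusted p = 0.0351), which was not called.

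Zeb2, the close relative of Zeb1, is ENSMUSG00000026872 at chr2:44983632-45117395 (minus strand) and is overlapped on the other strand by 3381 bases of the antisense gene Zeb2os, so its reads carry the uncertainty given for Esrp1. In FCS/LIF it was at 2.77 and 3.33 CPM (+E+N), 5.05 and 6.53 CPM (−E), 2.69 and 4.22 CPM (−N) and 6.05 and 6.40 CPM (−E−N). The states without Dox lay above +E+N and −N in every library. Zeb2 rose by 1.01 ± 0.23 (SE, adjusted p = 0.00675) in −E−N, and the difference of 0.90 ± 0.23 (adjusted p = 0.0259) in −E was not called. The −E−N call was lost without +E+N replicate 1 (0.89, adjusted p = 0.04) or 2 (1.15, adjusted p = 0.0152) and without −E−N replicate 1 (1.03, adjusted p = 0.0271) or 2 (0.95, adjusted p = 0.0427). In 2i/LIF Zeb2 was at 0.417, 0.409 and 0.906 CPM (+E+N), 1.97, 1.40 and 1.18 CPM (−E), 1.82, 1.22 and 2.14 CPM (−N) and 5.72, 6.01 and 7.48 CPM (−E−N), with 13, 11 and 26 counts in +E+N, which did not pass the filter itself, so that a rise over +E+N was favoured by it. With no filter on low counts that rise was 3.47, adjusted p = 9.46e-10. Every −E−N library lay above every other, and every −E and −N library above +E+N. Zeb2 rose in −E−N by 3.48 ± 0.34 (SE, adjusted p = 8.75e-06) over +E+N, by 1.91 ± 0.31 (adjusted p = 0.00128) over −N and by 2.09 ± 0.31 (adjusted p = 0.000345) over −E. The −E−N response of FCS/LIF minus that of 2i/LIF was −2.44 ± 0.44 (SE, adjusted p = 0.000743), while with limma on log2(TPM + 0.1) it was −0.75, adjusted p = 0.194. In TPM the −E−N level was 1.75 ± 0.113 in FCS/LIF (SD, n = 2) and 1.30 ± 0.0416 in 2i/LIF (n = 3), against 0.650 ± 0.0283 and 0.243 ± 0.0651 in +E+N. In +E+N cells Zeb2 was 5.26-fold lower in 2i/LIF (−2.40 ± 0.33, SE, adjusted p = 9.70e-06). The filter favoured this difference too.

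**Figure D2:**
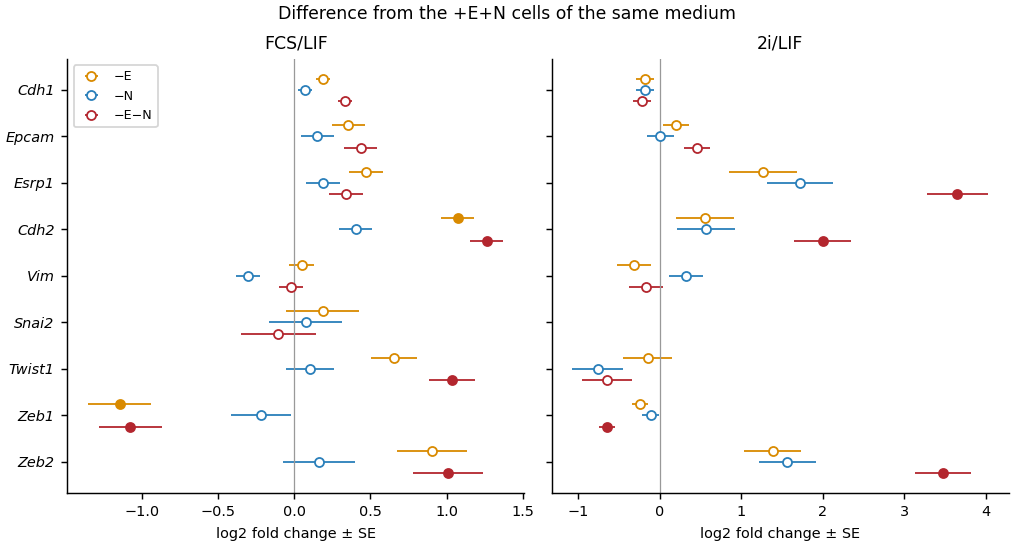
Log2 fold change of each gene in −E, −N and −E−N from +E+N of the same medium, with its SE. Filled points were called and open points were not, and Snai2 was not tested in 2i/LIF. The panels differ in the range of their axes. In −E−N, Cdh2 and Zeb2 lie right of 0 and Zeb1 left of it in both media, and Twist1 was called in FCS/LIF and Esrp1 in 2i/LIF.

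The first comparison asks how these genes differed after the loss of each receptor alone. In FCS/LIF 2 of 9 were called in −E, Cdh2 higher and Zeb1 lower, against 5.76% of all genes tested. In −N 0 of 9 were called by edgeR, with 0.173% of all genes called. At an unadjusted p under 0.05 2 of them passed in −N, Cdh2 (0.40 ± 0.11, SE, adjusted p = 0.108) and Vim. The share of all genes under that limit is not given here or below, so such counts do not set the 9 genes apart from others. DESeq2 also called 0 of 9, and 264 of the 15636 genes tested. In 2i/LIF 0 of the 8 genes tested were called in −E, against 1.55% of all genes, and 0 of 8 in −N, against 3.65%. At an unadjusted p under 0.05 there were 3 in −E and 3 in −N. DESeq2 called 447 of all 14355 genes tested in −E and 860 in −N. Among the 8 it called 1 in −E, Zeb2, and 2 in −N, Esrp1 and Zeb2. Neither gene passed the count filter in +E+N of 2i/LIF, so their rises over +E+N were favoured by it. Zeb2 differed by 1.39 ± 0.35 (SE, adjusted p = 0.0365) in −E and by 1.56 ± 0.35 (adjusted p = 0.0132) in −N, and Esrp1 in −N by 1.72 ± 0.40 (adjusted p = 0.0165). With the replicate number as a block, the counts were 1 in −E (Zeb2, 1.42, adjusted p = 0.00939) and 2 in −N (Esrp1, 1.71, adjusted p = 0.00299, and Zeb2, 1.57, adjusted p = 0.00318). Over all genes the block gave 596 calls in −E and 1115 in −N. Without +E+N replicate 3, the library with the highest CPM of Zeb2 in its group but the lowest TPM, Zeb2 passed in −N (2.05, adjusted p = 0.00658).

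The next comparison asks how these genes differed after the combined loss. In FCS/LIF 4 of 9 were called in −E−N against +E+N, Cdh2, Twist1 and Zeb2 higher and Zeb1 lower, against 18.8% of all genes. In 2i/LIF 4 of 8 were called, Esrp1, Zeb2 and Cdh2 higher and Zeb1 lower, against 18.6%. Esrp1 and Zeb2 entered the 2i/LIF fit only through states that lack a receptor, in which they were high, so the count of 8 is no measure of the set. The median difference of the genes tested was 0.34 (FCS/LIF) and 0.15 (2i/LIF), beside medians of all genes of 0 and 0.010. In each medium N-cadherin and Zeb2 rose while Zeb1 fell, so the calls did not share a single direction of the EMT scheme. Of the epithelial side only Esrp1 was called, in 2i/LIF alone, where the filter favoured its rise. Cdh1 was not called in either medium.

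Against −N, the state with Esrrb but without Nr5a2, −E−N cells of FCS/LIF had 2 of 9 called, Cdh2 and Twist1, both higher, against 10.1% of all genes. In 2i/LIF 2 of 8 were called, Esrp1 and Zeb2, both higher, against 6.76%, with Esrp1 in the fit through −E−N alone. When replicate numbers formed a block the 2i/LIF count was 3, the third being Cdh2, and 1622 of all 14355 genes were called. Zeb1 in FCS/LIF (−0.86 ± 0.21, SE, adjusted p = 0.0135) and Zeb2 (0.84 ± 0.23, adjusted p = 0.021) were not called, and Zeb2 was without −N replicate 2 (1.21, adjusted p = 0.00656). Zeb1 in 2i/LIF (−0.53 ± 0.10, SE, adjusted p = 0.00364) passed in p but not in fold, and did pass both without −E−N replicate 3 (−0.60, adjusted p = 0.00504).

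Against −E, which shares the absence of Dox, −E−N cells of FCS/LIF had 0 of 9 called by edgeR, against 5.05% of all genes. DESeq2 called 0 of 9 too, and 1042 of the 15636 genes tested. At an unadjusted p under 0.05 there were 2, Cdh1 (0.14 ± 0.0463, SE, adjusted p = 0.0596) and Twist1 (0.38 ± 0.15, adjusted p = 0.0982). In 2i/LIF 3 of 8 were called, Esrp1, Zeb2 and Cdh2, all higher, against 13.1% of all genes. Esrp1 was again in that fit through −E−N alone, and whether this step differs between media was not tested.

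The interaction asks whether the combined loss departs from the sum of the single losses on the log2 scale. None of the 9 genes was called by edgeR in FCS/LIF, where 0.032% of all genes were, and none of 8 in 2i/LIF, where 0.307% were. DESeq2 called 0 of them in each medium, and over all genes 63 of 15636 in FCS/LIF and 303 of 14355 in 2i/LIF. At an unadjusted p under 0.05 there were 0 and 0 of the set. The largest estimates in 2i/LIF were 0.88 ± 0.49 (SE, adjusted p = 0.475) for Cdh2, 0.66 ± 0.55 (adjusted p = 0.659) for Esrp1 and 0.52 ± 0.47 (adjusted p = 0.693) for Zeb2, and none passed the test.

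Between media, 7 of 9 genes were called in +E+N cells, against 34.7% of all genes. Esrp1, Zeb2, Cdh2, Epcam and Twist1 were lower in 2i/LIF, and Zeb1 and Vim were higher. Neither Esrp1 nor Zeb2 passed the count filter in +E+N of 2i/LIF. Both entered this fit through other groups, so their lower levels there were favoured by the filter. Cdh1 and Snai2 were not called. The lower genes came from the epithelial side, the mesenchymal side and the transcription factors alike. For the responses, FCS/LIF minus 2i/LIF, 0 of 9 were called for −E against 1.06% of all genes, 0 for −N against 0.743%, and 3 for −E−N (Esrp1, Twist1 and Zeb2) against 13.2%. At an unadjusted p under 0.05 there were 3 for −E and 4 for −N. DESeq2 called 1 (Zeb1) and 0, and over all 16147 genes 532 and 456. For −E−N, DESeq2 and the fit with replicate blocks each called 4, the fourth being Cdh1, with 2876 and 3298 of all genes called.

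**Figure D3:**
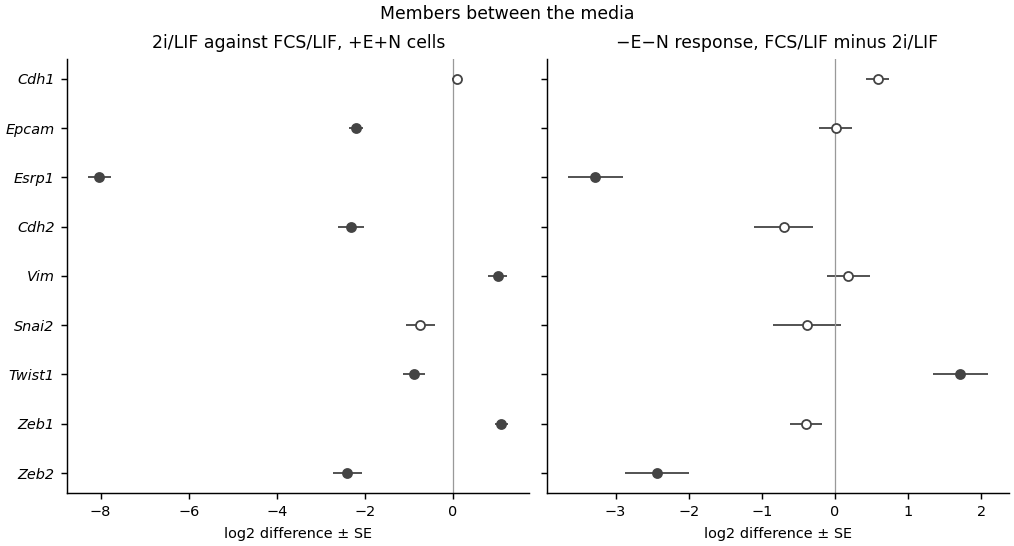
Left, log2 difference of 2i/LIF from FCS/LIF in +E+N cells, and right, −E−N response in FCS/LIF minus that in 2i/LIF, each with its SE, for the 9 genes. Filled points were called. Esrp1 lies near −8 on the left, and Esrp1 and Zeb2 lie left and Twist1 right of 0 on the right.

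A pair of ratios put Cdh2 beside Cdh1, and Zeb2 beside Zeb1, on 1 scale. The share of Cdh2 in the summed TPM of Cdh1 and Cdh2 was 1.46% ± 0.0858 (SD, n = 2) for +E+N, 2.72% ± 0.120 for −E, 1.85% ± 0.168 for −N and 2.78% ± 0.149 for −E−N of FCS/LIF. In 2i/LIF it was 0.284% ± 0.0569 (SD, n = 3), 0.494% ± 0.213, 0.495% ± 0.106 and 1.38% ± 0.405 in the same order. E-cadherin transcripts thus outnumbered N-cadherin transcripts in every library. The share of Zeb2 in the summed TPM of Zeb1 and Zeb2 was 18.4% ± 3.78 for +E+N, 52.4% ± 7.94 for −E, 23.4% ± 0.482 for −N and 53.0% ± 3.88 for −E−N of FCS/LIF. In 2i/LIF it was 3.85% ± 1.18, 9.16% ± 4.93, 6.61% ± 0.513 and 24.6% ± 2.60. The libraries of −E−N did not overlap those of +E+N for either ratio in either medium. As the ratios are made of the values of Cdh1, Cdh2, Zeb1 and Zeb2 given above, this adds no separate evidence. Zeb2 had 13, 11 and 26 counts in +E+N of 2i/LIF, so its share there is uncertain.

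**Figure D4:**
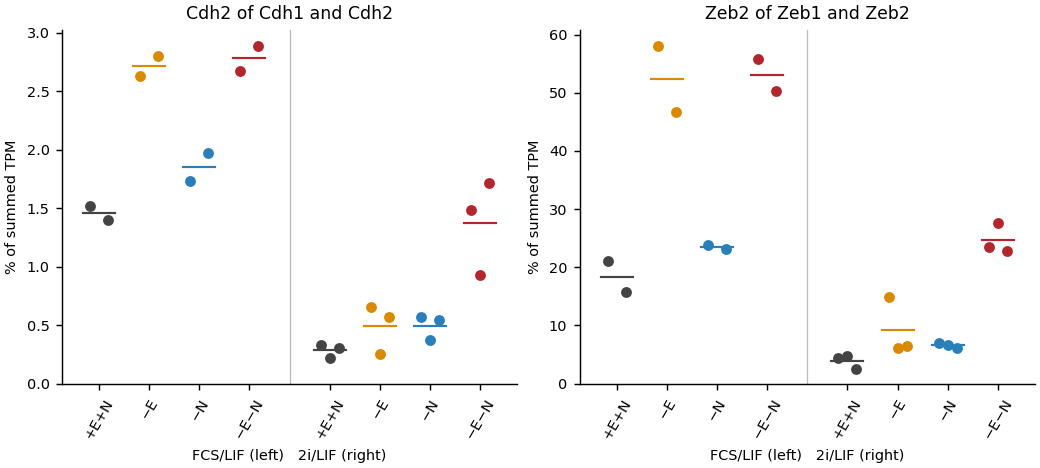
Percent of Cdh2 in Cdh1 plus Cdh2 and of Zeb2 in Zeb1 plus Zeb2, both in TPM and from 0, in each of the 20 libraries (points) with group means (bars). In both media the −E−N libraries lie above the +E+N libraries.

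Other genes of the pathway were taken as 5 lists, and median differences are given beside those of all genes, which were 0 for −E−N in FCS/LIF, 0.010 for −E−N in 2i/LIF and 0.0092 between media. The shares of all genes called in these were 18.8%, 18.6% and 34.7%, against which the counts below are to be read. Of 27 epithelial genes in −E−N, 16 higher and 1 lower of 27 tested were called in FCS/LIF (median 0.81), and 11 higher and 2 lower of 25 in 2i/LIF (median 0.62). Marveld3, 1 of these 11, passed the filter of 2i/LIF through −N and −E−N alone, so its rise was favoured by it. The keratins Krt8 and Krt18, filament proteins of simple epithelia, rose most. Krt18 went from 117 ± 11.7 to 586 ± 188 CPM in FCS/LIF (SD, n = 2) and from 4.54 ± 0.993 to 97.0 ± 29.3 in 2i/LIF (n = 3), differences of 2.30 ± 0.25 (adjusted p = 0.000137) and 4.43 ± 0.23 (adjusted p = 8.27e-08). Krt8 rose by 2.33 ± 0.25 (adjusted p = 0.000123) and 3.96 ± 0.27 (adjusted p = 4.09e-07). The membrane protease Prss8 rose by 1.83 ± 0.14 (adjusted p = 2.25e-05) and 2.85 ± 0.33 (adjusted p = 2.82e-05), and the tight junction gene Cldn6 by 0.90 ± 0.0804 (adjusted p = 4.71e-05) and 2.61 ± 0.22 (adjusted p = 2.92e-06). Cdh3, the P-cadherin gene, was lower, with differences of −1.62 ± 0.0822 (adjusted p = 2.80e-06) in FCS/LIF and −1.02 ± 0.27 (adjusted p = 0.00962) in 2i/LIF, and Jup was lower in 2i/LIF, with −0.83 ± 0.17 (adjusted p = 0.00204). Cdh3 was named after its values were seen. Across media, +E+N cells of 2i/LIF had 2 higher and 16 lower of 27 called (median −0.83). Of the lower genes, Ovol1 and Rab25 passed the filter in no 2i/LIF state and Marveld3 not in +E+N there, so the filter favoured their calls. The 2 higher were Dsg2 and Spint1, named after their values were seen.

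Markers of trophoblast, a simple epithelium that carries keratins, moved with this list. The summed level of its 6 markers went from 67.5-76.1 TPM in +E+N to 143-169 in −E−N in FCS/LIF, with 5 and then 6 of them at 1 TPM or more, and from 31.5-40.0 to 74.2-112 in 2i/LIF, with 2 and then 4. Among them Cdx2 went from 1.035 to 4.305 TPM in FCS/LIF and from 0.797 to 27.1 in 2i/LIF, and no marker was at 0 in all libraries of a group. Without Krt7, a keratin, these markers went from 54.6-59.3 to 85.2-90.3 TPM in FCS/LIF, and without Cdx2 from 30.1-39.4 to 51.3-80.95 in 2i/LIF. Their part in the result was not tested.

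Of 15 mesenchymal genes in −E−N, 10 higher and 1 lower of 12 tested were called in FCS/LIF (median 1.04), and 3 higher and 4 lower of 11 in 2i/LIF (median 0.12). Tagln, an actin-binding protein of smooth muscle, rose by 2.93 ± 0.10 (adjusted p = 4.53e-07) in FCS/LIF and 3.93 ± 0.38 (adjusted p = 8.15e-06) in 2i/LIF, yet its levels were 377 ± 15.6 and 2.65 ± 1.02 CPM. Cd44, a hyaluronan receptor, rose by 1.62 ± 0.40 (adjusted p = 0.00957) and 3.00 ± 0.37 (adjusted p = 4.88e-05). The filter favoured these rises, as Tagln in 2i/LIF was tested through −N and −E−N, and Cd44 through −E−N alone in 2i/LIF and through the 3 states other than +E+N in FCS/LIF. Acta2, smooth muscle actin, rose by 2.31 ± 0.11 (adjusted p = 1.93e-06) in FCS/LIF and was not tested in 2i/LIF. Thy1 was at −0.61 ± 0.18 (adjusted p = 0.0212) in FCS/LIF, not called, and fell by 2.04 on the log2 scale in 2i/LIF (adjusted p = 0.00347). It passed the 2i/LIF filter through +E+N and −E alone, so that fall was favoured. The FCS/LIF gene that fell was Fn1, fibronectin (−0.73 ± 0.0695, adjusted p = 6.79e-05), which fell in 2i/LIF too (−0.79 ± 0.19, adjusted p = 0.00563). The third gene that rose in 2i/LIF was Mmp2 (1.29 ± 0.27, adjusted p = 0.00226), and the others that fell were Sparc (−1.54 ± 0.16, adjusted p = 1.29e-05) and Itga5 (−1.36 ± 0.14, adjusted p = 1.46e-05). Both of these rose in FCS/LIF, Sparc by 0.80 ± 0.0996 (adjusted p = 0.000297) and Itga5 by 0.72 ± 0.0796 (adjusted p = 0.00015). Fn1, Mmp2, Sparc and Itga5 were named after their values were seen. Fibroblast markers summed to 2.9-8.3 TPM over all libraries, with Lum at 0 in +E+N of FCS/LIF and Dcn and Postn at 0 in all 2i/LIF states but −E−N. Of these 8 markers, 7 were higher and 1 lower in −E−N of FCS/LIF, and 6 higher and 2 lower in 2i/LIF. Without Thy1 they went from 1.01-1.02 TPM in +E+N to 3.91-4.91 in −E−N of FCS/LIF, and from 2.16-4.09 to 2.79-5.14 in 2i/LIF. Pdgfrb and Thy1 belong to both lists. In +E+N cells of 2i/LIF against FCS/LIF 2 higher and 6 lower of 12 were called (median −1.28), the higher being Itga5 and Pdgfrb. Of the lower genes, Acta2 passed the filter in no 2i/LIF state and Tagln not in +E+N there, so the filter favoured their calls.

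Of 10 other EMT transcription factors, 2 higher and 0 lower of 7 tested were called in −E−N of FCS/LIF and 1 higher and 1 lower of 5 in 2i/LIF, with medians of 0.33 and −0.063. Snai1, which encodes Snail, rose in both, by 0.94 ± 0.17 (adjusted p = 0.0019) in FCS/LIF and 2.17 ± 0.24 (adjusted p = 2.02e-05) in 2i/LIF. Its level went from 5.16 ± 0.681 to 10.0 ± 0.808 CPM (SD, n = 2) and from 2.54 ± 0.638 to 11.3 ± 1.36 CPM (n = 3). Foxc1 rose in FCS/LIF by 2.77 ± 0.56 (adjusted p = 0.00365), at under 1 CPM in every FCS/LIF group, and was tested there through −E−N alone, the state in which it was high. Gsc, a homeobox gene of the primitive streak, fell in 2i/LIF with a difference of −2.79 ± 0.17 (adjusted p = 2.53e-07), from 9.03 ± 1.13 to 1.29 ± 0.177 CPM, and was higher in +E+N cells of 2i/LIF than of FCS/LIF by 4.43 ± 0.26 (adjusted p = 4.27e-10). Between media 3 higher and 2 lower of 8 of these factors were called. The filter favoured the calls of Gsc, which passed it in no FCS/LIF state, and of Snai3, which passed it in no 2i/LIF state.

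Of the 6 catenin genes, whose proteins tie cadherins to the cytoskeleton, 0 higher and 0 lower of 6 were called in −E−N of FCS/LIF by edgeR and 0 higher and 1 lower of 5 in 2i/LIF, the latter being Jup, plakoglobin (−0.83 ± 0.17, adjusted p = 0.00204). In FCS/LIF Ctnna1 (0.37 ± 0.0662, adjusted p = 0.00188), Ctnnd1 (0.32 ± 0.0514, adjusted p = 0.0012) and Jup (0.39 ± 0.0735, adjusted p = 0.00249) passed in p but not in fold, and these were named after their values were seen. Of 9 TGF-β pathway genes, a main inducer of EMT, 3 higher and 0 lower of 9 were called in FCS/LIF and 0 higher and 3 lower of 7 in 2i/LIF. The ligand Tgfb2 rose by 2.27 ± 0.24 (adjusted p = 0.000116) in FCS/LIF, from 0.823 ± 0.166 to 4.06 ± 0.238 CPM, and was not tested in 2i/LIF. The receptor Tgfbr2 rose by 1.13 ± 0.24 (adjusted p = 0.00486) in FCS/LIF and was at −0.78 ± 0.19 (adjusted p = 0.00605) in 2i/LIF. The signal transducer Smad3 rose by 0.87 ± 0.12 (adjusted p = 0.000436) in FCS/LIF and was at 0.61 ± 0.16 (adjusted p = 0.0103) in 2i/LIF, not called. The inhibitor Smad7 was at 0.080 ± 0.0632 (adjusted p = 0.327) in FCS/LIF and −1.37 ± 0.14 (adjusted p = 1.40e-05) in 2i/LIF, and the other gene lower in 2i/LIF was the ligand Tgfb1 (−0.74 ± 0.16, adjusted p = 0.00298). Between media 0 higher and 1 lower of 6 catenin genes were called, the latter being Ctnna2, and 1 higher and 0 lower of 9 TGF-β genes, the former being Tgfbr2. Ctnna2 passed the filter in −E and −E−N of FCS/LIF alone, so the filter favoured its call.

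**Figure D5:**
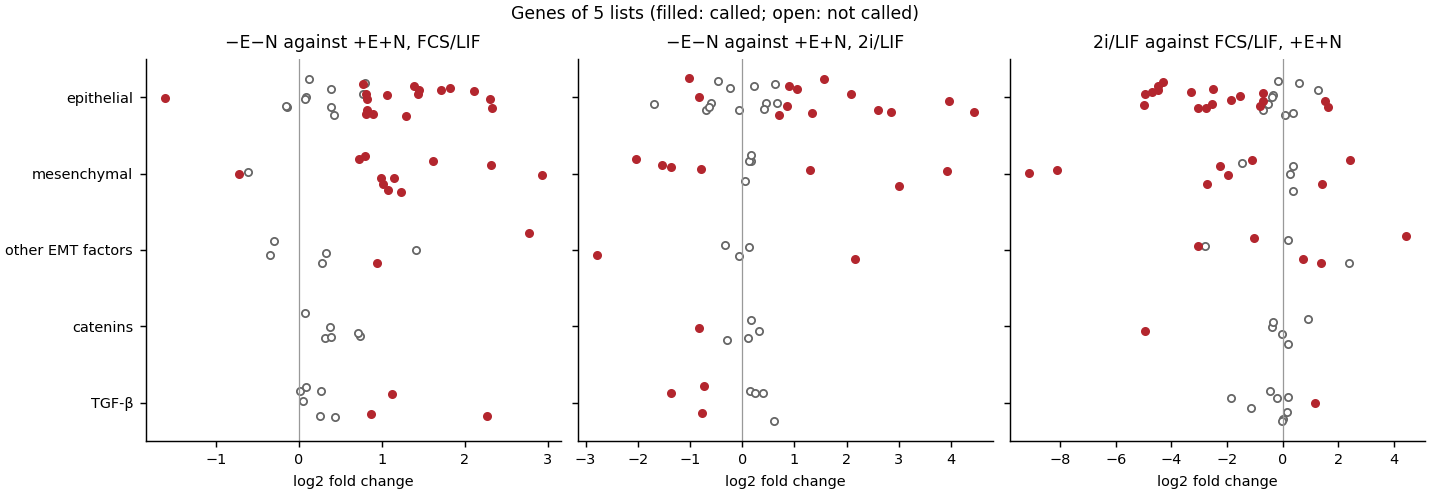
Log2 fold change of every tested gene of the 5 lists in −E−N against +E+N of each medium and in 2i/LIF against FCS/LIF, with points spread vertically at random within a list. Filled points were called. Most filled epithelial points lie right of 0 in −E−N of both media and left of 0 between media.

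The genes whose pattern was most like each of 8 of the 9 were taken by Pearson's r over the 8 group means of log2(CPM + 1), among genes averaging 100 counts or more a library. They were Rab21 and Hyou1 for Cdh1 (0.987 and 0.982), Ap1m2 and Flt4 for Epcam (1.000 and 0.999) and Dnaja1 and Spata13 for Esrp1 (0.998 and 0.998) on the epithelial side. They were Ptpn14 and Ogfod2 for Cdh2 (0.995 and 0.995) and Ndufa10 and Abr for Vim (0.981 and 0.980) on the mesenchymal side. For the transcription factors they were Cyfip2 and Mdm2 for Twist1 (0.995 and 0.994), Triml2 and Aifm1 for Zeb1 (0.997 and 0.996) and Arhgap28 and Dgat2 for Zeb2 (0.993 and 0.983). These values are descriptions over 8 points that share libraries and the division into media, and were picked as the highest of 11737 genes.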

How the data were processed

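RNA-seq of 20 of the series' 89 samples was used, and its ChIP-seq was not analysed here. Read pairs were mapped by the authors on mm10 (STAR), and RSEM gave gene estimates. The deposited expected counts are not normalized between libraries. The deposited TPM values, also made by the authors with RSEM, are scaled to each library. For genes with near-identical copies shared reads are divided by estimation. Expected counts were rounded, and 92 spike-in rows, all 0, were left out.

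Within each medium 4 states were fitted together with edgeR 4.0.16 (R 4.3.3, TMM, quasi-likelihood) for genes reaching 20 counts throughout the replicates of 1 or more states. Comparisons between media used all 20 libraries as 8 groups. P-values were adjusted by Benjamini-Hochberg over all genes tested. CPM used TMM-scaled library totals. Alternatives were DESeq2 1.42.0 (its Wald test, and its size factors in edgeR), no count filter, limma 3.58.1 after adding 1 or 0.1 to TPM and taking log2, an adjusted p under 0.05, 1 fit for all libraries, each library left out, and the replicate number as a block. Deviations from group means of same-numbered libraries correlated at 0.157 to 0.625 in FCS/LIF (2 pairs a comparison, with the same value by construction) and 0.0434 to 0.722 in 2i/LIF. In 2i/LIF 17 of 18 exceeded 0.1, the exception being replicate 2 of +E+N and −E−N, so the numbers were taken to pair all other 2i/LIF states. Named list genes were up to 4 per list with the largest called difference in −E−N. The genes most like Snai2 are not reported here. Gene positions are from GENCODE vM21 and promoters from RefSeq. The fits were tested on simulated data. The members and lists were chosen with earlier results of these data known.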

Additional observations from a re-analysis of the deposited data

Results flagged for a closer look

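The −E−N response was called as different between FCS/LIF and 2i/LIF for 3 of the 9 genes, by the test of the difference itself, FCS/LIF minus 2i/LIF on the log2 scale. That test is what marked them. For Esrp1 it was −3.28, with 0.34 ± 0.11 (SE, adjusted p = 0.0321) in FCS/LIF and 3.65 ± 0.38 (adjusted p = 1.15e-05) in 2i/LIF, where +E+N held 8, 7 and 6 counts. For Zeb2 it was −2.44, with 1.01 ± 0.23 (adjusted p = 0.00675) and 3.48 ± 0.34 (adjusted p = 8.75e-06), and the −E−N levels of the media, 6.23 ± 0.252 and 6.40 ± 0.941 CPM, lay close to each other. In TPM these levels did not overlap, at 1.75 ± 0.113 in FCS/LIF and 1.30 ± 0.0416 in 2i/LIF (SD). With limma on log2(TPM + 0.1) the Zeb2 difference between media was not called. For Twist1 it was 1.71, with 1.04 ± 0.15 (adjusted p = 0.000674) and −0.64 ± 0.31 (adjusted p = 0.113). The levels of +E+N cells differed between the media for all 3 genes, and the part of this in the result was not tested.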

How the results depend on the processing

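FCS/LIF has 2 libraries a state, and Snai2, Zeb2, Cdh2, Twist1 and Esrp1 rest on low counts in 2i/LIF, which limits what could be called. The number of the 9 genes called moved by over 1.5 times from that of the report as follows. For each comparison with such a move, the number over all genes also moved by over 1.5 times with at least 1 setting, as given below. With no filter on low counts it was 4 for FCS/LIF −E against +E+N, 4 for FCS/LIF −E−N against −N, 2 for 2i/LIF −N against +E+N, 1 for the −E response between media and 2 for the −N response between media. With limma on log2(TPM + 0.1) it was 1 for FCS/LIF −E against +E+N. With an adjusted p under 0.05 it was 4 for FCS/LIF −E against +E+N, 4 for FCS/LIF −E−N against −N, 1 for 2i/LIF −E against +E+N, 2 for 2i/LIF −N against +E+N and 1 for the −E response between media. With all 20 libraries in 1 fit it was 1 for FCS/LIF −E against +E+N, 1 for FCS/LIF −E−N against −N and 2 for 2i/LIF −N against +E+N. With DESeq2 it was 4 for FCS/LIF −E−N against −N, 1 for 2i/LIF −E against +E+N, 2 for 2i/LIF −N against +E+N and 1 for the −E response between media. With DESeq2's size factors no number moved. Smaller moves were 3 with DESeq2 for FCS/LIF −E against +E+N (2 in the report), 3 with all 20 libraries in 1 fit for FCS/LIF −E−N against +E+N (4 in the report), 3 with limma on log2(TPM + 1) for FCS/LIF −E−N against −N (2 in the report), 3 with limma on log2(TPM + 1) for 2i/LIF −E−N against +E+N (4 in the report), 3 with DESeq2, no filter on low counts, the block, limma on log2(TPM + 1), an adjusted p under 0.05 and all 20 libraries in 1 fit for 2i/LIF −E−N against −N (2 in the report), 6 with limma on log2(TPM + 1) and limma on log2(TPM + 0.1) for +E+N between media (7 in the report), 4 with DESeq2, no filter on low counts, the block and an adjusted p under 0.05 for the −E−N response between media (3 in the report) and 2 with limma on log2(TPM + 1) for the −E−N response between media (3 in the report). Leaving out 1 library at a time, with FCS/LIF states then resting on a lone library assumed to vary like the other groups, gave 1 to 3 for FCS/LIF −E against +E+N (2 with all libraries), 2 to 3 for FCS/LIF −E−N against +E+N (4 with all libraries), 1 to 3 for FCS/LIF −E−N against −N (2 with all libraries), 0 to 1 for 2i/LIF −N against +E+N (0 with all libraries), 3 to 5 for 2i/LIF −E−N against +E+N (4 with all libraries), 2 to 3 for 2i/LIF −E−N against −N (2 with all libraries), 2 to 3 for 2i/LIF −E−N against −E (3 with all libraries), 5 to 7 for +E+N between media (7 with all libraries) and 2 to 4 for the −E−N response between media (3 with all libraries). The other comparisons kept their number of 0. The cause was not tested.

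Replicate numbers were tested as a block. In FCS/LIF deviations of same-numbered libraries correlated at 0.157 to 0.625, so shared numbers may pair libraries there too. With 2 replicates both numbers of a pair of states give the same value by construction, so the 12 values are not separate. With 2 pairs a comparison this was not settled. The block gave 4 for FCS/LIF −E against +E+N and 4 for FCS/LIF −E−N against −N. Where 2i/LIF numbers pair libraries, it gave 1 for 2i/LIF −E against +E+N and 2 for 2i/LIF −N against +E+N, and across media 1 for the −E response between media and 1 for the −N response between media. It moved no other number by over 1.5 times.

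Over all genes the number called moved by over 1.5 times with at least 1 setting or library left out for FCS/LIF −E against +E+N (901, 445 to 1631 over the settings, 314 to 691 without 1 library), FCS/LIF −N against +E+N (27, 7 to 548 over the settings, 5 to 12 without 1 library), FCS/LIF −E−N against +E+N (2934, 2307 to 3757 over the settings, 1812 to 2617 without 1 library), FCS/LIF −E−N against −N (1573, 920 to 2563 over the settings, 679 to 1355 without 1 library), FCS/LIF −E−N against −E (790, 437 to 1571 over the settings, 84 to 616 without 1 library), FCS/LIF interaction (5, 0 to 242 over the settings, 0 to 9 without 1 library), 2i/LIF −E against +E+N (223, 136 to 596 over the settings, 87 to 159 without 1 library), 2i/LIF −N against +E+N (524, 309 to 1115 over the settings, 243 to 442 without 1 library), 2i/LIF −E−N against −N (970, 682 to 1622 over the settings, 510 to 856 without 1 library), 2i/LIF interaction (44, 7 to 324 over the settings, 7 to 52 without 1 library), the −E response between media (171, 119 to 706 over the settings, 31 to 189 without 1 library), the −N response between media (120, 56 to 809 over the settings, 47 to 126 without 1 library) and the −E−N response between media (2136, 1796 to 3821 over the settings, 1220 to 2184 without 1 library).

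A log2 difference changed sign 15 times in settings other than leaving out a library, and none was called. They were with limma on log2(TPM + 1) 0.13 for Vim in FCS/LIF −E−N against +E+N, 0.022 for Snai2 in FCS/LIF −E−N against +E+N, 0.018 for Vim in FCS/LIF −E−N against −E, 0.46 for Esrp1 in the −E response between media, 0.067 for Snai2 in the −E response between media, 0.39 for Zeb2 in the −E response between media, 0.14 for Cdh2 in the −N response between media and 0.19 for Cdh2 in the −E−N response between media; with limma on log2(TPM + 0.1) 0.13 for Vim in FCS/LIF −E−N against +E+N, 0.047 for Snai2 in FCS/LIF −E−N against +E+N, 0.018 for Vim in FCS/LIF −E−N against −E, 0.0027 for Esrp1 in the −E response between media, 0.084 for Snai2 in the −E response between media and 0.42 for Zeb2 in the −E response between media; with no filter on low counts −0.050 for Epcam in the −E−N response between media. In 45 fits without 1 library a sign also turned, again for no called value, and the lowest and highest values follow. For FCS/LIF −E against +E+N these were Vim −0.0091 to 0.12 and Snai2 −0.029 to 0.38. For FCS/LIF −N against +E+N these were Twist1 −0.022 to 0.25, Zeb1 −0.45 to 0.076 and Zeb2 −0.20 to 0.45. For FCS/LIF −E−N against +E+N these were Vim −0.10 to 0.048. For FCS/LIF −E−N against −E these were Zeb1 −0.087 to 0.21, Zeb2 −0.089 to 0.29 and Epcam −0.049 to 0.16. For FCS/LIF interaction these were Zeb2 −0.34 to 0.31, Epcam −0.21 to 0.063 and Zeb1 −0.0058 to 0.52. For 2i/LIF −N against +E+N these were Epcam −0.068 to 0.097. For 2i/LIF −E−N against +E+N these were Vim −0.34 to 0.069. For 2i/LIF −E−N against −N these were Cdh1 −0.11 to 0.044 and Twist1 −0.13 to 0.43. For 2i/LIF −E−N against −E these were Cdh1 −0.10 to 0.047 and Vim −0.029 to 0.38. For 2i/LIF interaction these were Vim −0.36 to 0.050. For +E+N between media these were Cdh1 −0.034 to 0.17. For the −E response between media these were Snai2 −0.25 to 0.18. For the −N response between media these were Zeb1 −0.33 to 0.19 and Cdh2 −0.44 to 0.036. For the −E−N response between media these were Epcam −0.16 to 0.13 and Vim −0.088 to 0.35.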

Other observations

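After single losses the share of all genes called was 5.76% in −E and 0.173% in −N of FCS/LIF, and 1.55% and 3.65% in 2i/LIF. Of the epithelial genes, 3 higher and 1 lower of 27 tested were called in −E of FCS/LIF, 0 of 27 in −N by edgeR, 1 higher and 0 lower of 25 in −E of 2i/LIF and 2 higher and 0 lower of 25 in −N. Of the mesenchymal genes, these were 3 higher and 0 lower of 12, 1 higher and 0 lower of 12, 0 of 11 and 1 higher and 1 lower of 11 in the same order. Krt18 stood at 277 ± 62.8 CPM in −N of FCS/LIF (SD, n = 2) and at 31.4 ± 1.17 CPM in −N of 2i/LIF (n = 3), above −E at 178 ± 43.3 and 4.26 ± 1.04 CPM. Krt8 showed the same order, at 437 ± 107 against 299 ± 63.3 CPM and 46.1 ± 3.08 against 3.15 ± 0.601 CPM. Cd44 stood higher in −E, at 1.37 ± 0.0820 CPM, than in −N, at 0.610 ± 0.148 CPM, in FCS/LIF. The difference between −E and −N was not tested for these genes.

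Of 8 primitive endoderm markers 4 were higher and 4 lower in −E−N of each medium, against +E+N. They summed to 12.5-17.5 TPM in +E+N and 26.4-29.0 in −E−N of FCS/LIF, but without Dab2, at 5.01 and 17.7 TPM, to 8.15-11.8 and 9.35-10.6, and Gata6 was lower, at 2.03 and 1.06 TPM. In 2i/LIF they summed to 2.73-3.81 and 6.68-9.28 TPM, and without Foxa2, at 0.520 and 4.04 TPM, to 2.06-3.50 and 2.78-6.02. Of 7 markers of primitive streak and mesoderm, which include Gsc, 5 were higher and 1 lower in FCS/LIF, where they summed to 2.33-3.01 and 8.34-9.65 TPM. In 2i/LIF 2 were higher and 4 lower, and they summed to 15.0-17.3 and 6.95-13.2 TPM, or without Gsc to 5.68-7.12 and 5.52-11.9. Of 6 neural crest markers, of cells known for Snai2 and Twist1, 4 were higher and 2 lower in each medium. They summed to 13.4-13.5 and 11.3-12.0 TPM in FCS/LIF, and to 17.4-24.8 and 6.88-11.9 TPM in 2i/LIF, with Tfap2b at 0 in +E+N of 2i/LIF. Without Tfap2a the FCS/LIF sums were 9.07-9.09 and 9.34-10.01 TPM, and without Ngfr the 2i/LIF sums were 4.36-5.08 and 1.64-1.96.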
